A study of Mus musculus with 4 samples.

Results

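Lipid handling was described through 48 mouse genes chosen by symbol, out of 32285 genes in the deposited matrices, and all 48 were found. They were placed in 5 groups by textbook role: 12 genes of uptake and efflux, 9 of storage and lipolysis, 10 of fatty acid synthesis, 7 of fatty acid activation and oxidation, and 10 of sterol synthesis. The question was where in the liver these genes were expressed, how they differed between a high-fat diet and chow, and how they differed between treated and untreated mice on that diet.

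Single-cell transcriptomes came from the livers of male C57BL/6J mice that were 5 weeks old at purchase. NCD mice received normal chow and distilled water. HFD mice received a diet with 60% of energy from fat for 14 weeks and then distilled water by mouth for 8 weeks on that diet, while JQF mice received the same diet and then daily Jiangtang Qingre Formula (JQF), a formula of several medicinal herbs, for the same 8 weeks. There was 1 library of NCD, 2 of HFD and 1 of JQF, so only HFD had replicates, and the tests take NCD and JQF to vary as much as its 2 libraries did. By the study's methods the groups were 1, 2 and 1 livers, so each p-value rests on the spread between 2 animals, which edgeR shares across the genes of a type. In NK cells, hepatocytes and, nearly so, endothelial cells that shared value replaced a gene's own spread, so a gene there can pass although its HFD libraries lie far apart.

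After filtering, 31290 of 34746 called barcodes were kept, 5975 to 10259 in a library, with 67615639 to 108062769 unique molecular identifiers (UMIs, 1 per captured RNA molecule). The median was 13081 UMIs per cell in NCD and 7608 to 8884 in the other libraries. Cells were assigned to types from marker genes, none of which was among the 48, and 26171 cells (83.6%) received a type. Between 8.95% and 15.7% of the cells of a library lay near the limit of this assignment. Each pair of libraries shared 14 to 30 barcodes. The labels call the samples immune cells, but endothelial cells, hepatocytes and epithelial cells were present by their markers, as was a small class gated by stellate cell markers. Hepatocytes, endothelial cells, neutrophils, macrophages, dendritic cells (DC), B cells, natural killer (NK) cells and T cells had at least 50 cells in every library and were tested. Monocytes (23 in NCD), plasmacytoid DC (29 in NCD) and epithelial cells (28 in NCD) are given as values with no test. Levels are UMIs of a gene per 1000000 UMIs of that type in that library (CPM), and 4 levels in a row stand in the order NCD, HFD replicate 1, HFD replicate 2, JQF. Because counts came from the 3' end of each RNA, they do not scale with gene length. A level of a summed type can differ because all of its cells differ or because its subtypes are mixed differently, and these cannot be told apart here.

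Cells take up fatty acids and lipoproteins through receptors such as Cd36, the scavenger receptors Msr1 and Scarb1, and Lrp1, and export cholesterol through the transporters Abca1 and Abcg1 to particles that carry Apoe. Surplus fatty acids are joined to glycerol by Dgat1 and Dgat2 and surplus cholesterol is esterified by Soat1, after which both are kept in droplets coated by perilipins (Plin2, Plin3) and released by lipases. New fatty acids and sterols are made by enzymes under the control of Srebf1 and Srebf2, transcription factors that Insig1 holds back when sterols are plentiful. In fatty liver, hepatocytes store triglyceride and liver macrophages take up lipid.

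The first comparison asked which type held each gene. Hepatocytes carried the synthesis and oxidation genes, macrophages carried uptake and efflux, and most storage genes were above the mean of the other types in neutrophils. The mean summed storage level was nonetheless higher in macrophages (1762 CPM) and hepatocytes (1365 CPM) than in neutrophils (1307 CPM). In edgeR's quasi-likelihood test with library as a block, 104 of 376 member and type pairs were above the mean of the other types, at an adjusted p under 0.05 and above it in all 4 libraries. Of 47 members tested, 30 were higher in hepatocytes (63.8%, against 22.7% of all genes), 23 in macrophages (48.9%, against 26.1%), 13 in DC (27.7%, against 26.9%), 12 in endothelial cells (25.5%, against 28.7%), 12 in neutrophils (25.5%, against 24.2%), 6 in B cells (12.8%, against 21.0%), 4 in NK cells (8.51%, against 16.4%) and 4 in T cells (8.51%, against 23.9%). The shares in DC, endothelial cells and neutrophils were near those of all genes. Vldlr, a lipoprotein receptor, was too low to test in any of the 8 types. Outside them it was found in epithelial cells at 17.1, 15, 11.6 and 9.46 CPM. In the class gated by stellate cell markers it was at 152 CPM in HFD replicate 2 (17 cells) and 116 CPM in JQF (30 cells). The leading genes of this class included Dcn, Col3a1, Dpt and Pi16 but neither Lrat nor Reln, and doublet removal left 0 of its cells in HFD replicate 2.

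Macrophages were above the other types for 9 of 11 uptake and efflux members. Lrp1, a large endocytic receptor, averaged 502 CPM in macrophages and 102 CPM in hepatocytes, the next type, and macrophages held 71.3% of its CPM summed over types. Msr1, which binds modified lipoproteins, averaged 420.5 CPM in macrophages and 179 CPM in endothelial cells. Apoe, the ligand of lipoprotein receptors, was the most abundant member, at a mean of 19739.6 CPM in macrophages, 8954 CPM in hepatocytes and 70.6 CPM in DC. Against the mean of the other types, the log2 fold change in macrophages was 6.04 ± 0.24 for Msr1 (edgeR adjusted p = 2.7e-17) and 5.37 ± 0.21 for Apoe (edgeR adjusted p = 1.24e-17). Macrophages held 61.1% of summed Apoe, and hepatocytes held 88.6% of Apoc1, an apolipoprotein that stands beside Apoe on lipoproteins. Cd36 was nearly as high in macrophages (826 CPM) as in endothelial cells (911 CPM), and the order of the 2 types was not the same in all libraries. Mylip, a ligase that marks lipoprotein receptors for breakdown, was highest in endothelial cells, at 816 CPM on average.

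Hepatocytes were above the other types for 8 of 10 sterol synthesis members, 7 of 10 fatty acid synthesis members and 5 of 7 oxidation members. Fads2, a desaturase of long fatty acids, had 90.0% of its summed CPM in hepatocytes, Scd1, the desaturase that makes oleate, had 80.7%, and Acadm, which begins the oxidation of medium-chain fatty acids, had 75.0%. The step above the other types was 7.10 ± 0.30 for Fads2 (edgeR adjusted p = 9.44e-18) and 4.69 ± 0.20 for Acadm (edgeR adjusted p = 1.63e-17) on the log2 scale. Fads1 (56.1%), Acsl1 (54.8%), Hadha (39.5%) and Acadl (37.1%) also had their largest share in hepatocytes, and so did the sterol genes Idi1 (54.3%), Fdps (49.6%), Hmgcs1 (48%) and Fdft1 (35.8%). For Acsl1 and these sterol genes hepatocytes were the top type in 3 of the 4 libraries. The lowest share in a library was 16.5% for Idi1, 12.1% for Fdps, 17.2% for Hmgcs1 and 22.7% for Fdft1. In NCD, Fdps was at 8.77 CPM in hepatocytes and 31.4 CPM in DC. B cells were second for Scd1, with a mean of 237 CPM against 1495 CPM in hepatocytes. Elovl6, which lengthens palmitate, was instead highest in NK cells (100 CPM, 49.2% of its sum). Among sterol genes DC were above the other types for 5 of 10, Cyp51, Fdps, Idi1, Sqle and Srebf2, and the sterol sum of plasmacytoid DC, which were not tested, was 583, 493, 566 and 709.8 CPM, against a mean of 482 CPM in hepatocytes.

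Neutrophils were above the mean of the other types for 7 of 9 storage and lipolysis members. Dgat1, which makes the final bond of triglyceride, averaged 169 CPM in neutrophils and 187 CPM in NK cells, and the higher mean of NK cells rested on the NCD library, the only library in which they were the top type. Endothelial cells held 64.6% of Mgll, the lipase that splits monoglycerides, at a mean of 672 CPM (5.61 ± 0.27 on the log2 scale, edgeR adjusted p = 3.27e-16). Lipa (464 CPM) and Soat1 (297 CPM) were highest in macrophages. Dgat2, the second triglyceride synthase, averaged 127 CPM in hepatocytes and 107 CPM in neutrophils, and hepatocytes were the top type in 2 of the 4 libraries, so the order of these types was not settled.

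**Figure D1:**
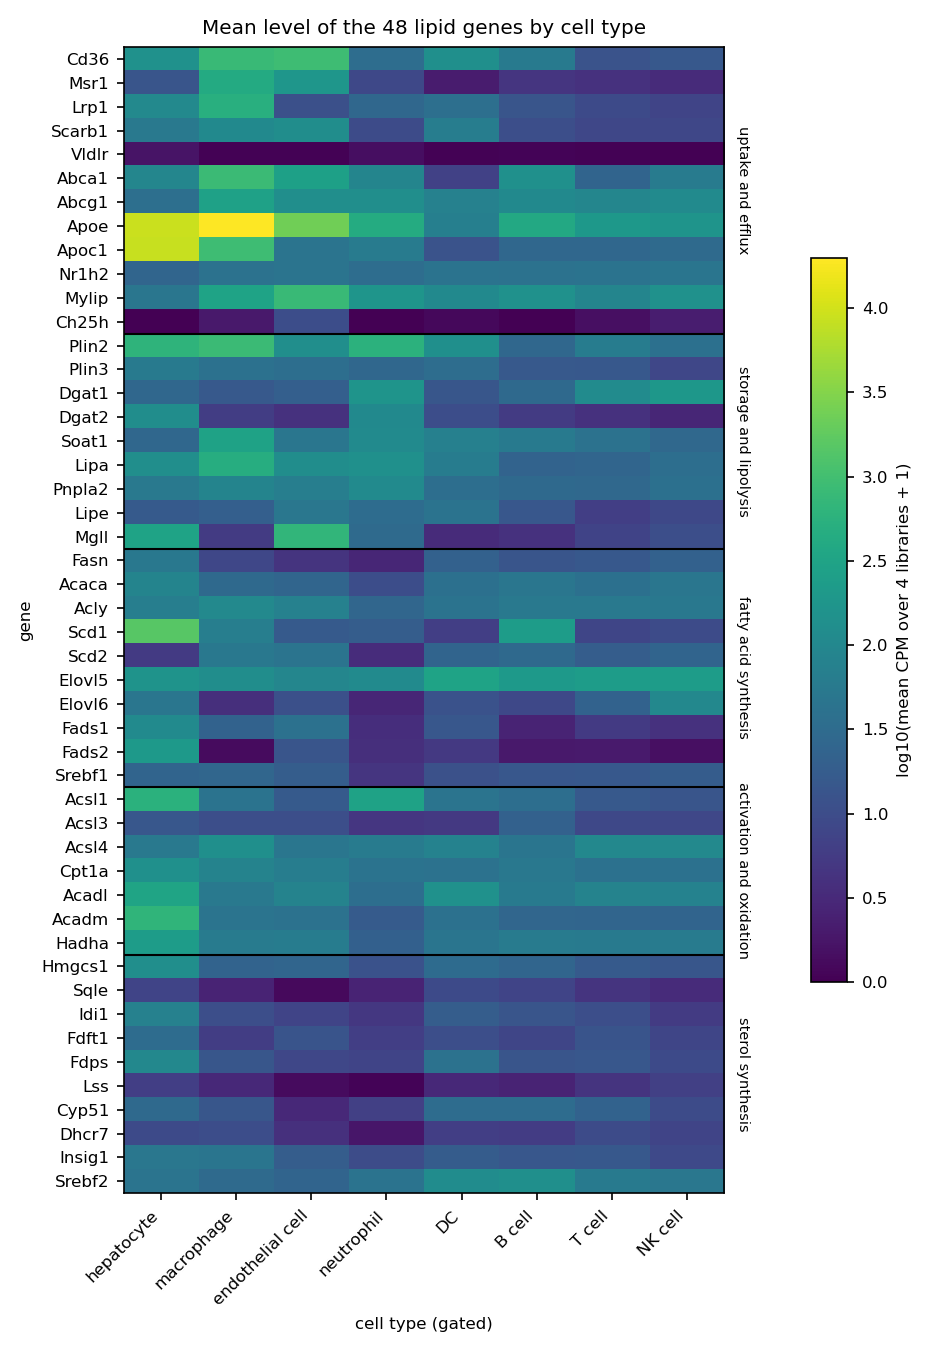
The colour gives the mean level of each of the 48 genes over the 4 libraries, as log10 of CPM plus 1, with genes in rows by functional group and the 8 tested types in columns. Bright cells cluster in the hepatocyte column and, for uptake and efflux, in the macrophage column, where Apoe reached a mean of 19739.6 CPM.

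The second comparison set HFD against NCD within each type. Across 351 member and type pairs, 83 passed (23.6%, 43 higher and 40 lower in HFD), and over all genes 19.0% of 97741 pairs passed. The members therefore passed at a share not far above that of all genes, and the functional groups differed in the direction of their calls, a difference that was not tested. Storage and lipolysis had the largest share, 25 of 71 pairs (35.2%), of which 18 were higher. Uptake and efflux had 17 of 82 pairs, 12 of them higher, whereas sterol synthesis had 18 of 71 pairs, of which 14 were lower. Fatty acid synthesis had 12 of 71 (5 higher, 7 lower) and activation and oxidation 11 of 56 (4 higher, 7 lower).

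By type, the counts beside the share of all genes called were 12 of 43 in B cells (27.9%, all genes 22.6%), 15 of 46 in DC (32.6%, all genes 25.3%), 13 of 42 in NK cells (31.0%, all genes 24.5%), 15 of 47 in T cells (31.9%, all genes 15.2%), 9 of 45 in endothelial cells (20.0%, all genes 16%), 13 of 45 in hepatocytes (28.9%, all genes 35.9%) and 6 of 46 in macrophages (13%, all genes 12.7%). In neutrophils edgeR called 0 of 37 members and 0.0515% of all genes. There 12 members, and 2097 of all 9708 genes, had an unadjusted p under 0.05, and DESeq2 called 3 members and 358 genes. The T cell share was well above that of all genes, and the hepatocyte share was below it. The median log2 fold change of the members was 0.36 in B cells, against 0.08 for all genes, and 0.00 in T cells, against 0.08. With DESeq2 in place of edgeR, 34 pairs passed over all types. Of the 48 members 9 passed in no type, namely Acly, Acsl1, Cd36, Cpt1a, Dgat2, Dhcr7, Lss, Srebf1 and the untested Vldlr.

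Members differed more between diets than between the HFD libraries in all 8 types, though barely in endothelial cells. The median absolute log2 difference over the 48 members, with 1 CPM added, was 0.61 between HFD and NCD in T cells and 0.14 between the HFD libraries, and in macrophages it was 0.49 and 0.22. In endothelial cells the 2 medians were nearly equal, at 0.40 and 0.39. Because NCD was 1 library, a property of that library and an effect of diet cannot be told apart.

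**Figure D2:**
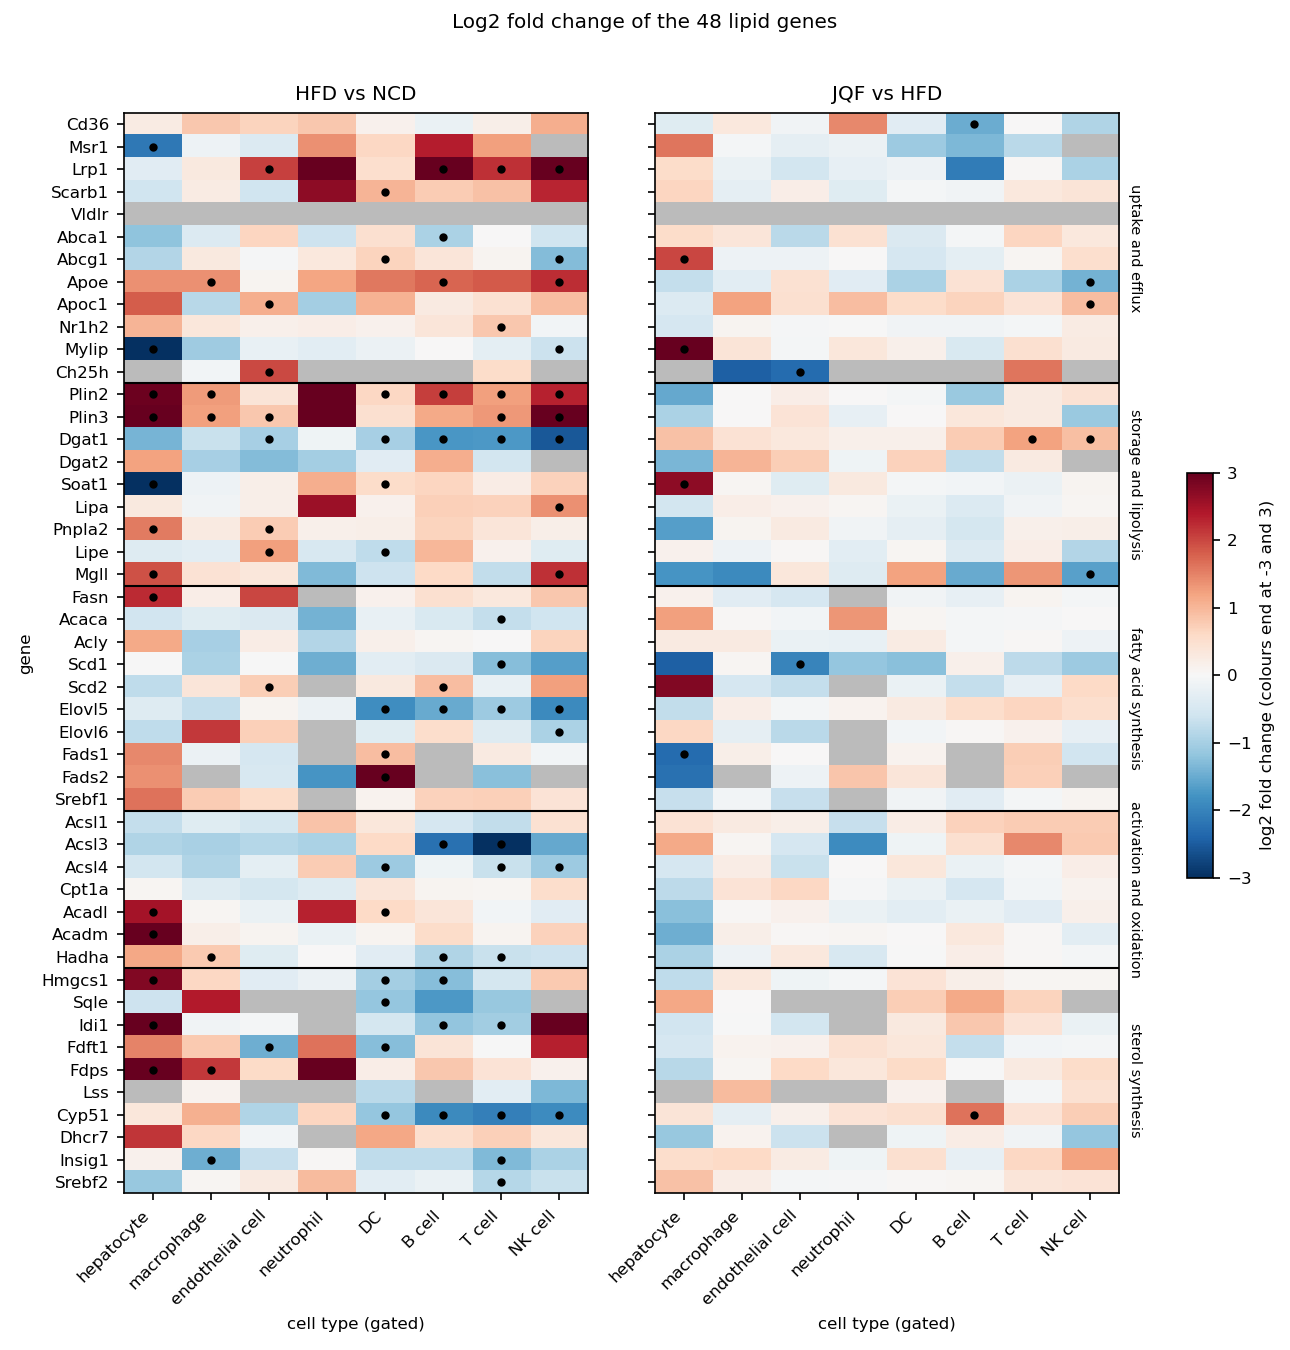
Log2 fold changes of the 48 genes (rows) in the 8 tested types (columns) for HFD against NCD and for JQF against HFD, where red is higher in the first-named group, grey was not tested and a black dot marks an adjusted p under 0.05. The left panel holds 83 dots and the right panel 13, with the red of Plin2 and Plin3 and the blue of Dgat1 running across types on the left.

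The droplet coat genes rose with the high-fat diet in most types, while Dgat1 fell. Plin2, the main coat protein of droplets outside fat tissue (chr4:86648386-86670060, minus strand, GRCm38), rose in 6 of 8 types. In hepatocytes it was at 164, 1084, 825 and 393 CPM, higher in HFD by 2.93 ± 0.87 on the log2 scale (estimate ± SE, edgeR adjusted p = 0.00473). In macrophages it was at 417, 1021, 918 and 969 CPM (1.27 ± 0.21, edgeR adjusted p = 0.033). Both HFD libraries and the JQF library were above NCD in each of these types. T cells had 28.6, 67.5, 71.9 and 80.1 CPM (1.24 ± 0.19, edgeR adjusted p = 0.00175), so the step was of similar size at a far lower level.

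Plin2 also rose in B cells (9.09, 30, 50.4 and 17.3 CPM), NK cells (7.55, 34.9, 55.3 and 54.8 CPM) and DC (94.2, 144, 167 and 142 CPM). The B cell call was lost with Leiden clusters and with doublets removed (log2 fold change 2.07, lowest 1.23), and the NK cell call with Leiden clusters and with DESeq2 (2.32, lowest 0.75). In DC the change was small, 0.61 ± 0.19, and missed the threshold under 5 of 10 alternatives. In neutrophils Plin2 stood at 86.5, 823, 633 and 742 CPM, a fitted log2 fold change of 3.00 ± 0.34, but with an edgeR adjusted p of 0.0732. Of the NCD neutrophils 21.8% had a Plin2 UMI, and 58.6% and 59.7% of the HFD neutrophils. Monocytes, with no test, showed 207, 931, 738 and 604 CPM. Plin2 in both HFD libraries lay above NCD in every type named here, but all types share the 1 NCD library. How often other genes show this order was not counted.

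Plin3, a second and more widely expressed droplet coat protein, rose in 5 types. In hepatocytes it was at 9.57, 85.3, 78.0 and 51.1 CPM (3.47 ± 0.77, edgeR adjusted p = 0.000117), and in macrophages at 20.2, 53.0, 39.6 and 45.9 CPM (1.24 ± 0.25, edgeR adjusted p = 0.0457). T cells had 6.23, 19.3, 12.7 and 18.0 CPM and endothelial cells 18.3, 43.6, 31.4 and 46.7 CPM. The endothelial call was lost under 7 of 10 alternatives, free RNA subtraction among them, and the macrophage call under 5 of 10. In NK cells NCD held no Plin3 UMI, and HFD was at least 2.39-fold higher, computed with a floor of 3 UMIs that covers counting error only, and this call was lost with Leiden clusters.

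Dgat1 (chr15:76502015-76511953, minus strand) fell in B cells, T cells, NK cells, DC and endothelial cells. In NK cells it was at 430.5, 86.9, 82.7 and 148 CPM, and the log2 fold change was -2.55 ± 0.20 (edgeR adjusted p = 2.71e-35). T cells had 199, 63.3, 61.3 and 136 CPM (-1.72 ± 0.16, edgeR adjusted p = 0.000117), and the share of T cells with a Dgat1 UMI was 57.2% in NCD, against 25.8% and 22.6% in the HFD libraries and 44.6% with JQF. Such shares depend on depth, and the median T cell had 10657, 7290, 6711 and 8148 UMIs, in the same order. By CPM, NCD was the highest library for Dgat1 in both NK cells and T cells. B cells had 53.9, 22.7, 11.7 and 26.4 CPM, DC 19.8, 10.2, 11.1 and 11.4 CPM, and endothelial cells 25.7, 17.9, 12.9 and 17.9 CPM, a call lost under 4 of 10 alternatives. Neutrophils, where the gene was abundant, had 169.6, 141, 184 and 182 CPM, with the HFD libraries on both sides of NCD.

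Other storage members changed in fewer types. Mgll rose in hepatocytes at 164, 389, 532 and 165 CPM (1.90 ± 0.80, edgeR adjusted p = 0.0491), as did Pnpla2, the first lipase of triglyceride breakdown, at 33.5, 70.2, 79.6 and 28.6 CPM (1.57 ± 0.66, edgeR adjusted p = 0.0499). Both lay just inside the threshold and missed it under 4 of 8 alternatives. Lipe, the hormone-sensitive lipase, rose in endothelial cells (22.0, 59.0, 56.5 and 58.8 CPM) and fell in DC (58.4, 38.3, 35.4 and 36.6 CPM). Soat1 fell in hepatocytes, at 56.6, 1.08, 7.6 and 40.6 CPM (-3.04 ± 0.66, edgeR adjusted p = 6.89e-05), a call that rests on 71, 1, 15 and 27 UMIs, of which 40.8% of those of NCD came from 3 cells.

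The hepatocyte class needs a limit beside each of its results. Its NCD cells were shallow, with a median of 2490 UMIs against 7757 and 4192 in HFD, and carried endothelial markers at a summed 797 CPM over 9 genes, with none of the 9 at 0, against 13 and 19.3 CPM in HFD and 57.2 CPM in JQF. The 9 macrophage markers summed to 331, 27.0, 201 and 128 CPM. The 7 epithelial markers, Krt8 and Krt18 among them, went the other way, at 114, 897, 748 and 211 CPM, with the members called higher in HFD. In this sum RNA of other cells and the hepatocytes' own RNA cannot be told apart. Msr1 and Mylip, which are abundant in macrophages and endothelial cells, were among the 3 members lower in HFD hepatocytes, and the part of such RNA in the hepatocyte results was not tested. Scaling moved the median gene of hepatocytes by -0.41 on the log2 scale between library totals and the TMM factors used, more than in any other type, so hepatocyte folds are relative to that shift. No called member changed sign in any type under TMM, RLE or library totals. Without hepatocytes, an alternative chosen after seeing the data, 70 of 306 pairs passed.

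**Figure D3:**
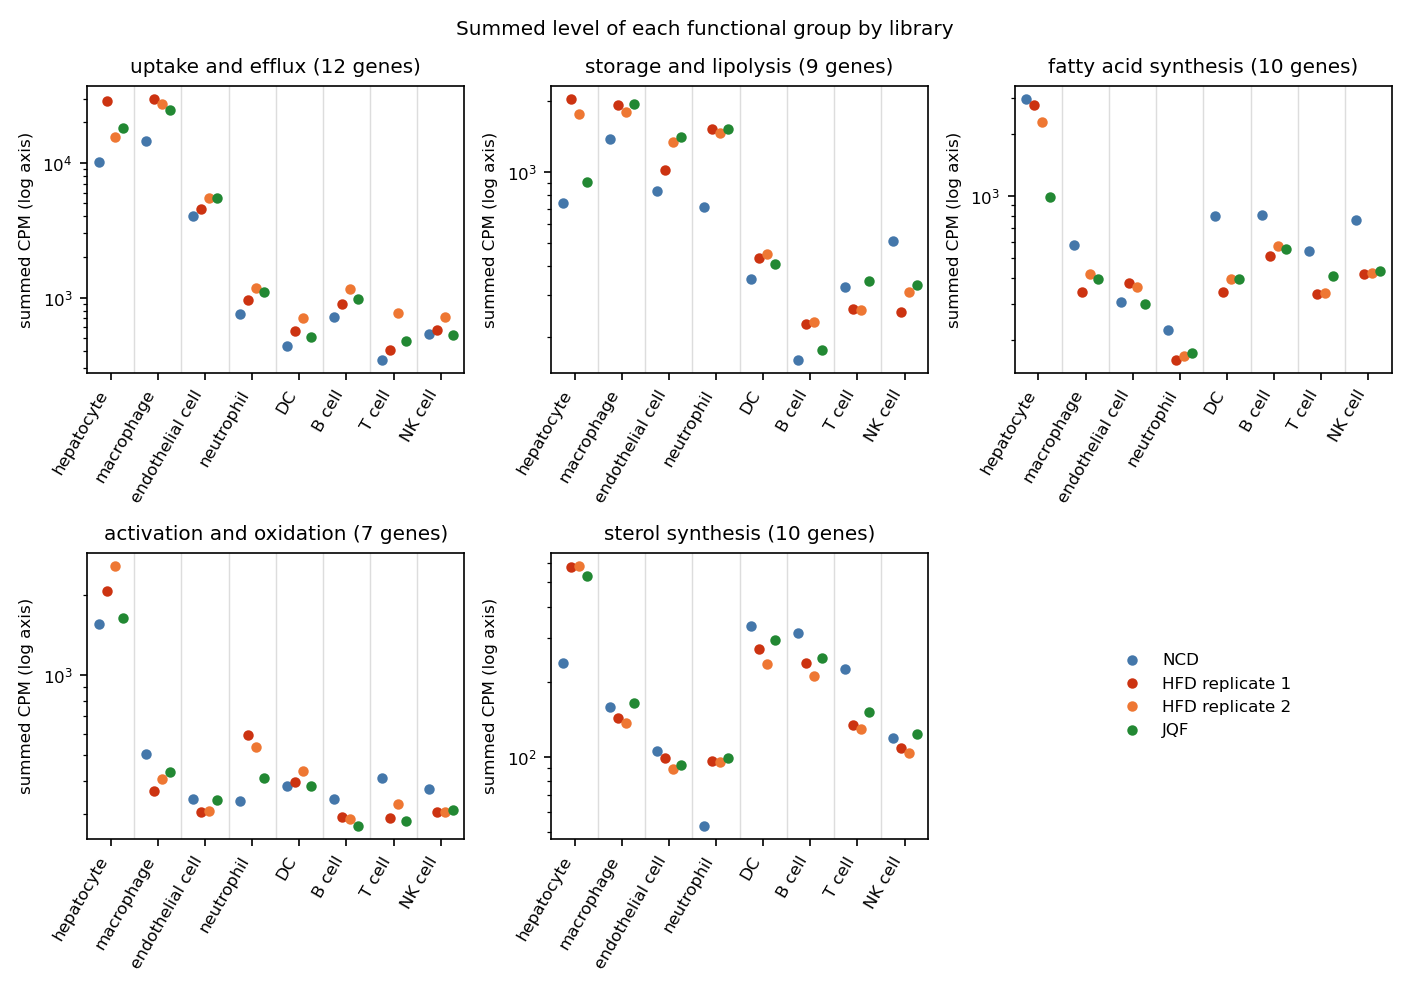
Each point is the summed CPM of a functional group in 1 library and type, on log axes, coloured by library. Storage sums lay higher in HFD than NCD in neutrophils (712 in NCD, 1518 and 1467 in HFD) and hepatocytes but lower in NK cells (511 in NCD, 254 and 309 in HFD) and T cells (324 in NCD, 261 and 260.2 in HFD). Fatty acid synthesis sums lay lower in HFD in DC (798 in NCD, 341 and 393 in HFD), B, T and NK cells, macrophages (579 in NCD, 341 and 419 in HFD), neutrophils (222 in NCD, 159.6 and 167 in HFD) and, by less, hepatocytes (2958 in NCD, 2762 and 2284 in HFD).

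Among fatty acid synthesis members Elovl5 fell in lymphocytes and DC, and 1 member, Fasn, rose in hepatocytes. Elovl5, which lengthens polyunsaturated fatty acids (chr9:77917364-77984519, plus strand), fell in 4 types. NK cells had 471, 144, 148 and 192 CPM (-1.91 ± 0.19, edgeR adjusted p = 1.35e-20). DC had 647, 155, 225 and 221 CPM (-1.87 ± 0.24, edgeR adjusted p = 0.00163). B cells had 367, 115, 157 and 181 CPM (-1.51 ± 0.23, edgeR adjusted p = 0.000897). T cells had 348, 162, 176 and 251 CPM (-1.08 ± 0.19, edgeR adjusted p = 0.00317). NCD was above both HFD libraries in each of the 4 types, and these calls held under every alternative in which they were tested. Endothelial cells, in contrast, had 81.8, 94.9, 99.3 and 93.1 CPM, with NCD the lowest, and the change there did not pass.

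Elovl6 fell in NK cells, its main site, at 149.5, 87.5, 92.8 and 70.2 CPM (-0.95 ± 0.23, edgeR adjusted p = 0.000525). This call was lost with DESeq2, with doublets removed and with Leiden clusters, where the direction turned (0.06 on the log2 scale, edgeR adjusted p = 0.886). Acaca, the carboxylase that commits acetyl units to fatty acids, fell in T cells (52.8, 33.6, 32.9 and 30.7 CPM). Scd1 in T cells was at 13.4, 4.52, 6.92 and 3.16 CPM, where free RNA could supply 17.5, 4.73, 8.02 and 2.95 CPM. Its NCD and HFD levels lay below that estimate and JQF just above it, so the HFD against NCD call there is read as background. Free RNA was measured in barcodes with few UMIs, and its share in a type was set by taking all hepatocyte marker UMIs of that type as free. In hepatocytes Fasn, the synthase of palmitate, rose from a low level (16, 56.1, 58.3 and 75.2 CPM, 2.24 ± 0.71, edgeR adjusted p = 0.00786). Scd1, far more abundant there, was at 2241, 1729 and 1641 CPM in NCD and HFD, and the fitted change of -0.01 ± 0.77 on the log2 scale leaves a wide interval. Fads2 in DC rose from 1 UMI in NCD, a ratio of 16.9 with a counting interval of 2.98 to 670.4.

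Among activation and oxidation members, the ligases Acsl3 and Acsl4 fell in immune cell types, Acadm and Acadl rose in hepatocytes, and Acsl1, another ligase, passed in no type. Acsl3, a ligase that activates fatty acids at droplets (chr1:78657825-78707743, plus strand), fell in T cells at 21.2, 1.92, 2.12 and 5.14 CPM (-3.43 ± 0.34, edgeR adjusted p = 0.000151), and in B cells at 48.1, 13.1, 8.7 and 13.9 CPM (-2.24 ± 0.32, edgeR adjusted p = 0.000548). Acsl4, which prefers arachidonate, fell in DC (118, 59.2, 61.6 and 72.9 CPM), NK cells (154, 81.1, 87.8 and 89.9 CPM) and T cells (141, 88.6, 93.7 and 82.3 CPM). The HFD libraries lay close to each other and below NCD in each of these. In hepatocytes Acadm rose at 155, 762, 1199 and 432 CPM (3.08 ± 0.88, edgeR adjusted p = 0.00338) and Acadl, which acts on longer chains, at 108, 411, 515 and 236 CPM (2.50 ± 0.83, edgeR adjusted p = 0.0112). Hadha, a subunit of the trifunctional protein of oxidation, fell in B and T cells and rose in macrophages (41.7, 71.8, 66.4 and 61.3 CPM), the last a call lost under 4 of 10 alternatives. Cpt1a, which admits fatty acids to mitochondria, passed in none of the 8 types.

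Among sterol synthesis members, those that passed fell in B cells, T cells, NK cells and DC, and 3 of 9 rose in hepatocytes. The median log2 fold change of the group was -0.76 in B cells, -0.68 in T cells and -0.79 in DC, against 0.08, 0.08 and 0.12 for all genes, and 1.49 in hepatocytes, against -0.12. In NK cells the group median was 0.14, near the 0.16 of all genes, so the group as a whole was not lower there. For the 15 other sterol synthesis genes listed, of which 12 to 15 were tested in B cells, T cells, DC and hepatocytes, the median was 0.18 in B cells, -0.10 in T cells and 0.05 in DC, while in hepatocytes it was 1.14. In NK cells, with 11 of them tested, it was 0.27. No sterol member rose in B cells, T cells, NK cells or DC, where 3 of 9, 4 of 10, 1 of 9 and 4 of 10 tested members fell. Promoter sequences of Cyp51, Hmgcs1, Idi1 and Insig1 are shown because these members were called in several of the types and are known targets of Srebf2. They are taken from RefSeq on GRCm38.p6, from 250 bases before the annotated start to 50 after it, on the strand of the gene: chr5:4104648-4104947 (minus) for Cyp51, chr13:119690101-119690400 (plus) for Hmgcs1, chr13:8885356-8885655 (plus) for Idi1 and chr5:28071162-28071461 (plus) for Insig1. Capitals mark CCAAT or its reverse complement ATTGG, and CACNCCAC or its reverse complement GTGGNGTG, a form of the sterol regulatory element.
Cyp51: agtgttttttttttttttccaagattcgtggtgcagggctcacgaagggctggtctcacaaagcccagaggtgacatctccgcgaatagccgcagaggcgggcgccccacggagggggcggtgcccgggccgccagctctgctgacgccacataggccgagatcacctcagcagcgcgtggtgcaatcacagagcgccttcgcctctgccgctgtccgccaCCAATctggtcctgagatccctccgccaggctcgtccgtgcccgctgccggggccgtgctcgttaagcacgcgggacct
Hmgcs1: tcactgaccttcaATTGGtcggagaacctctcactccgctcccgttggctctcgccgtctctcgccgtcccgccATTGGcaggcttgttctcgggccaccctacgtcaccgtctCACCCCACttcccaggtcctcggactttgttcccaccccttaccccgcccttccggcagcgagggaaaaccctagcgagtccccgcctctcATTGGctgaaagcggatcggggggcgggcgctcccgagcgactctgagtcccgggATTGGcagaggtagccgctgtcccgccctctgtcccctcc
Idi1: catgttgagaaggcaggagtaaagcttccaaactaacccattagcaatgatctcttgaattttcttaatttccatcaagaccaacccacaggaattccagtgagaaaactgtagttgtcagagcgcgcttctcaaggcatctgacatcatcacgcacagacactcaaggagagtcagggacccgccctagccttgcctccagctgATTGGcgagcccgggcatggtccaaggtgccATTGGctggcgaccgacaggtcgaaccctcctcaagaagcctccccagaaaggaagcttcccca
Insig1: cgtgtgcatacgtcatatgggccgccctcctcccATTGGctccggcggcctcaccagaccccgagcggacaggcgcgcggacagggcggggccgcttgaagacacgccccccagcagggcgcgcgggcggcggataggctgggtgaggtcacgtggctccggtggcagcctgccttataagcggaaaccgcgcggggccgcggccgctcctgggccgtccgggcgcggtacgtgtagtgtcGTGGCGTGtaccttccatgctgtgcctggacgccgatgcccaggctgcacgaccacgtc

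RefSeq promoters were matched for 36 of the 48 members, 46 promoters in all. CCAAT on either strand was present in 7 of the 9 matched promoters of sterol synthesis members (77.8%), and each of the 7 matched genes had at least 1 such promoter, against 22 of 46 member promoters (47.8%) and 37.4% of 32851 promoters in the annotation. CACNCCAC on either strand was in the promoters of Hmgcs1 and Insig1 as well as Acsl1 and Acsl4 (8.70% of member promoters, 6.24% of all). The 2 motifs overlapped in 0 member promoters. These are matches of letters within the window, not measured sites.

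Cyp51, the lanosterol demethylase, fell in 4 types, more than any other sterol member. T cells had 47.1, 11.7, 11.6 and 14.6 CPM (-2.05 ± 0.23, edgeR adjusted p = 0.000236). B cells had 54.9, 10.6, 20.0 and 44.3 CPM (-1.91 ± 0.32, edgeR adjusted p = 0.00151), and DC had 48.6, 25.0, 22.3 and 31.5 CPM (-1.15 ± 0.16, edgeR adjusted p = 0.00211). In NK cells it was low throughout (16.6, 6.08, 3.82 and 8.07 CPM), and the call was lost under 4 of 9 alternatives. NCD was the highest library in all 4 types. Hmgcs1, which makes the precursor of mevalonate, fell in B cells (42.1, 18.4, 18.7 and 19.3 CPM) and DC (45, 25.1, 23.0 and 30.7 CPM). Idi1, the isomerase of the isoprenoid branch, fell in T cells (15.1, 7.31, 7.63 and 9.35 CPM) and B cells (18.9, 10.6, 6.96 and 14.2 CPM). Insig1 fell in T cells (23.2, 9.79, 9.36 and 13.8 CPM), where Srebf2 itself fell as well, at 82.1, 48.5, 45.1 and 56.9 CPM. In DC, Fdft1 (16.3, 6.38, 8.05 and 8.75 CPM) and Sqle (11.8, 4.57, 6.94 and 9.14 CPM), the first enzymes that commit to sterols, fell at low levels. The Sqle call was lost under 5 of 10 alternatives, free RNA subtraction among them, the Fdft1 call under 2 of 10 and the Idi1 call in B cells under 4 of 9.

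In hepatocytes Idi1 and Hmgcs1 moved in the other direction. Idi1 rose at 14.4, 118, 92.2 and 84.2 CPM (3.25 ± 0.76, edgeR adjusted p = 0.000287), Hmgcs1 at 35.1, 159.7, 202 and 129 CPM (2.77 ± 0.78, edgeR adjusted p = 0.00273) and Fdps, the farnesyl diphosphate synthase, at 8.77, 128, 164 and 99.3 CPM (4.45 ± 0.86, edgeR adjusted p = 6.2e-06). All 3 were above NCD in both HFD libraries. Few cells carried much of this signal: 3 hepatocytes held 67.0% of the Idi1 UMIs of HFD replicate 1 and 52.9% of its Fdps UMIs. Srebf2 in hepatocytes had 71.0, 24.8, 23.8 and 54.1 CPM and did not pass.

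**Figure D4:**
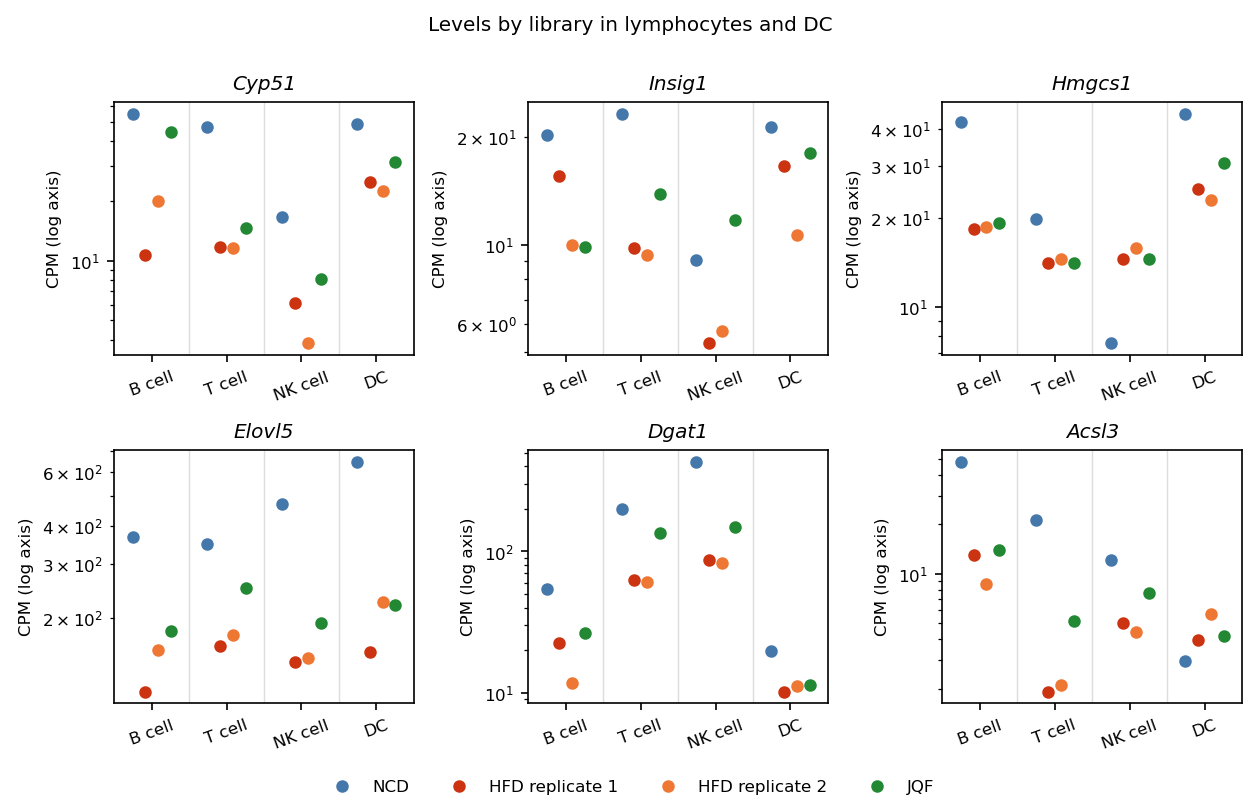
Levels of Cyp51, Insig1, Hmgcs1, Elovl5, Dgat1 and Acsl3 in B cells, T cells, NK cells and DC, 1 point per library on log axes of CPM. The blue NCD point stands above both HFD points for Elovl5, Cyp51 and Dgat1 in all 4 types, as in T cells for Acsl3 (21.2 against 1.92 and 2.12 CPM).

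Of the uptake and efflux members, Apoe rose in B and NK cells, Lrp1 in B, NK and T cells and Nr1h2 in T cells, while Abca1 fell in B cells and Abcg1 and Mylip fell in NK cells. Lrp1 rose in B cells at 1.35, 20.8, 23.5 and 4.74 CPM (3.91 ± 0.59, edgeR adjusted p = 0.000792). With Leiden clusters the change was 1.98 and did not pass (edgeR adjusted p = 0.181). Of the Lrp1 UMIs in B cells of HFD replicate 1, 81.4% came from 3 cells. NCD NK cells held 0 Lrp1 UMIs, and HFD was at least 2.14-fold higher with a floor of 3 UMIs. That NK cell call was lost with RLE scaling, with doublets removed and with free RNA subtracted (edgeR adjusted p = 0.128). The T cell Lrp1 call was lost with Leiden clusters and with doublets removed. Apoe rose in NK cells at 48.3, 254, 263 and 89.1 CPM (2.21 ± 0.27, edgeR adjusted p = 2.15e-14), but free RNA alone could supply 59.6, 85.1, 323 and 95.9 CPM, so HFD replicate 1 alone was above that estimate, and 69.5% of its UMIs came from 3 cells. The call passed under all 10 alternatives, with changes from 0.90 to 10.53 on the log2 scale. The 10.53 came with free RNA subtracted, which set NCD, HFD replicate 2 and JQF to 0. That setting rests on HFD replicate 1 alone and cannot show a rise in both HFD libraries. In B cells Apoe was at 126, 327, 567 and 559 CPM, with 66.2, 132, 352 and 86.4 CPM from free RNA, and the call passed with free RNA subtracted (1.70, edgeR adjusted p = 0.00176) and was lost with Leiden clusters (0.99, edgeR adjusted p = 0.116). The 9 macrophage markers summed to 34.7, 78.8, 170 and 117 CPM in B cells, 16.6, 97.2, 139.9 and 34.7 CPM in NK cells and 27.4, 51.4, 197 and 51.1 CPM in T cells, higher in both HFD libraries than in NCD in each, with at most 1 of 9 at 0 in HFD. In DC the macrophage markers summed to 76.1, 125, 167 and 125 CPM, as Plin2, Abcg1 and Scarb1 rose there. Most of that sum was 1 gene, Cd68 (53.9, 103, 105 and 103 CPM), and Adgre1 fell (18.4, 5.37, 6.87 and 6.66 CPM). The 6 Kupffer cell markers summed to 103, 15, 41.9 and 21.5 CPM in DC. Nearly all of this in NCD was Timd4 (101, 11.1, 13.3 and 14.6 CPM), while Cd5l was lowest in NCD (0, 3.16, 11.6 and 2.28 CPM). The 5 neutrophil markers summed to 1.51, 94.1, 247 and 92.4 CPM in NK cells, 2.02, 58.5, 82.6 and 10.1 CPM in B cells and 1.87, 47.4, 43.3 and 22.5 CPM in T cells. Plin2, Plin3, Lrp1 and Apoe are abundant in those types, and the part of this RNA in the lymphocyte and DC results was not tested. The 6 monocyte markers, Ccr2 and Itgam among them, summed to 124, 397, 468 and 328 CPM in NK cells, 9.43, 45.4, 76.5 and 33.5 CPM in B cells and 156, 401, 334 and 382 CPM in T cells. Their part was not tested. Markers of other types were lower in HFD, where the 9 endothelial markers summed to 236, 170.4, 147 and 86.3 CPM in NK cells and 173, 99, 105 and 101 CPM in T cells. Most of both sums was Pecam1, at 169, 158, 134 and 81.1 CPM in NK cells and 117, 94.1, 81.5 and 92.9 CPM in T cells. Pecam1 was also at 395, 413, 366 and 287 CPM in B cells, so these sums need not be endothelial RNA. The 7 hepatocyte markers summed to 133, 37.5, 78.1 and 125 CPM in T cells. The part of RNA from other types in the members that fell was not tested either.

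Other uptake and efflux members passed in 1 or 2 types each. Abca1 fell in B cells at 218, 125, 115 and 106 CPM (-0.95 ± 0.20, edgeR adjusted p = 0.00508), and Abcg1 fell in NK cells at 177, 68.4, 100.5 and 108 CPM (-1.30 ± 0.22, edgeR adjusted p = 1.49e-07) while it rose in DC (53.6, 85.8, 98.7 and 62.3 CPM). Scarb1, the receptor of high-density lipoprotein, rose in DC at 35.5, 75.3, 79.4 and 71.3 CPM. Nr1h2, a sterol-sensing nuclear receptor, rose in T cells (26.8, 49.5, 46.3 and 43.2 CPM). In hepatocytes Mylip fell at 91.7, 3.24, 10.6 and 82.7 CPM (-3.15 ± 0.63, edgeR adjusted p = 1.3e-05) and Msr1 at 26.3, 0, 7.09 and 16.5 CPM (-2.15 ± 0.75, edgeR adjusted p = 0.0162), both beside the endothelial and macrophage markers given above. The endothelial class differed in its own markers, as in Stab2 (3055, 1054, 1553 and 1569 CPM), Bmp2 (1929, 449, 919 and 1144 CPM) and Pecam1 (547, 1015, 882 and 892 CPM), and HFD replicate 1 had 97 such cells. The part of this mixture in the endothelial results was not tested. Ch25h, which makes an oxysterol, rose in endothelial cells from 3.4 to 15.4 and 15 CPM (1.99 ± 0.55, edgeR adjusted p = 0.00454). Apoc1 (20.0, 37.2, 52.3 and 65.6 CPM) and Lrp1 (3.46, 5.13, 21.6 and 11.0 CPM) were called higher there too, and both calls were lost once free RNA was subtracted.

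In macrophages 5 members rose (Apoe, Plin2, Plin3, Fdps and Hadha) and 1 fell (Insig1). Apoe was at 9969, 26534, 22776 and 19679 CPM (1.36 ± 0.22, edgeR adjusted p = 0.0328), a call lost with Leiden clusters (edgeR adjusted p = 0.0569). Insig1 fell at 81.3, 26.5, 30 and 42.6 CPM (-1.46 ± 0.17, edgeR adjusted p = 0.0253), and Fdps rose from 3.79 to 15.2 and 16.2 CPM, a call lost with DESeq2 (DESeq2 adjusted p = 0.145). NCD lay outside the HFD libraries for each of these genes. Cd36 (513, 797, 930.5 and 1065 CPM, edgeR adjusted p = 0.0785), Mylip (497, 196, 261 and 299 CPM, edgeR adjusted p = 0.0592), Elovl5 (175, 97.8, 108 and 117 CPM), Acsl4 (206, 88.9, 123 and 123 CPM) and Acly, the source of cytosolic acetyl units (164, 65.9, 92.8 and 96.2 CPM), had NCD outside the HFD pair and did not pass.

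The transporters and other receptors of macrophages had smaller gaps between NCD and the HFD pair. Abca1 was at 1014, 608, 861 and 943 CPM, Abcg1 at 259, 299, 311 and 273 CPM, Msr1 at 473, 359, 458 and 392 CPM, Lrp1 at 458, 591, 494 and 466 CPM and Scarb1 at 103, 109, 125 and 96.8 CPM. None of them passed. Lipa, the lysosomal lipase, at 489, 442, 432 and 495 CPM, and Soat1, at 326, 288, 279 and 296 CPM, were slightly above the HFD pair in NCD and did not pass. Apoc1 was far apart between the HFD libraries (1115, 195, 989.7 and 1363 CPM). Of the remaining members with 50 CPM or more, Acadl was at 53.9, 49.5, 57.3 and 54.8 CPM, Cpt1a at 95.6, 63.8, 76.3 and 93.0 CPM, Pnpla2 at 75.0, 74.5, 100 and 92.8 CPM, Scd1 at 109, 37.0, 68.6 and 56.0 CPM and Scd2 at 46.8, 54.7, 61.0 and 40.4 CPM.

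The mixture of macrophages moved with these results. The 6 Kupffer cell markers summed to 9461, 3384, 7489 and 7755 CPM and the 5 lipid-associated macrophage markers to 188, 2982, 2017 and 2107 CPM. A set of macrophages was chosen by Clec4f, Timd4, Vsig4, Cd5l and Marco, without Folr2, and Clec4f was also a gate marker of macrophages. Within macrophages that had at least 2 of these 5 Kupffer markers (135, 222, 1634 and 257 cells), 4 of 44 members passed for HFD against NCD, where 1272 of all 11594 genes did, a similar share: Plin2 (1.02 ± 0.19), Apoe (1.46 ± 0.23), Fdps (2.18) and Insig1 (-1.43). The same 4 genes had passed in all macrophages. Those numbered 144, 530, 2222 and 379 cells and include this set, so it was no independent test. Plin3 (edgeR adjusted p = 0.0524) and Hadha (edgeR adjusted p = 0.0540) had passed in all macrophages and did not pass in this set.

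**Figure D5:**
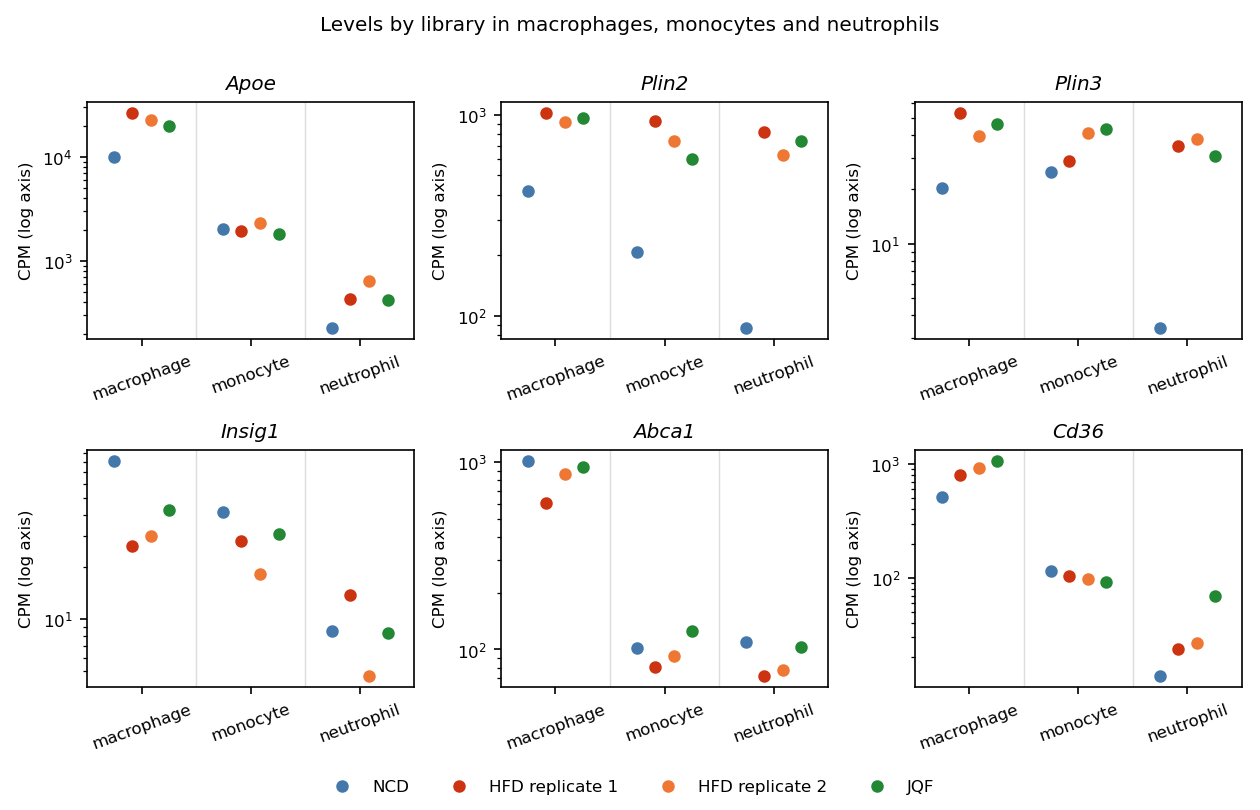
Levels of Apoe, Plin2, Plin3, Insig1, Abca1 and Cd36 in macrophages, monocytes and neutrophils, 1 point per library on log axes of CPM. For Plin2 the NCD point is below the other 3 in each type (86.5 CPM against 823, 633 and 742 CPM in neutrophils), while Abca1 in macrophages was at 1014 CPM in NCD against 608 and 861 CPM in HFD.

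Other genes of the same pathways were counted from lists of textbook pathway genes. For HFD against NCD, 33 of 143 pairs of 19 uptake and efflux genes were higher and 4 lower, 11 of 65 pairs of 12 storage genes were higher and 3 lower, 5 of 63 pairs of 11 fatty acid synthesis genes were higher and 7 lower, 20 of 134 pairs of 18 oxidation genes were higher and 10 lower, and 5 of 104 pairs of 15 sterol synthesis genes were higher and 9 lower. Over all genes 19.0% of pairs passed, so the uptake and efflux, storage and oxidation lists lay above that share or close to it, fatty acid synthesis was at it and sterol synthesis was below it. Fabp4, a fatty acid carrier of capillary endothelium, was at 255, 3171, 2335 and 1335 CPM in endothelial cells (3.26 ± 0.29, edgeR adjusted p = 3.44e-19), beside the shift in endothelial markers given above. Fabp5, a related carrier, was at 11.4, 417, 288 and 276 CPM in macrophages (5.00 ± 0.38, edgeR adjusted p = 0.0184). Hsd17b12, which acts in the same elongation cycle as Elovl5, fell in B cells, DC, NK cells, T cells and endothelial cells, as in DC at 191, 77.4, 83.1 and 97.4 CPM. These genes were picked from the lists after their values were seen.

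The third comparison set JQF against HFD. Fewer members passed, 36 of the 48 in no type. In all 13 of 351 pairs passed (3.70%, 7 higher and 6 lower in JQF), against 2.52% of all gene pairs. The counts were 2 of 43 in B cells (all genes 1.32%), 0 of 46 in DC (0.971%), 4 of 42 in NK cells (6.62%), 1 of 47 in T cells (2.46%), 2 of 45 in endothelial cells (1.52%), 4 of 45 in hepatocytes (8.56%), 0 of 46 in macrophages (0.00775%) and 0 of 37 in neutrophils (0%). At an unadjusted p under 0.05 edgeR had 8 of 46 members in DC, 3 of 46 in macrophages and 1 of 37 in neutrophils. Over all genes it had 1649 of 14010, 1195 of 12895 and 293 of 9708 in these types. DESeq2 called 0 members in each of the 3. All these comparisons share the HFD libraries with those against NCD, so the values for both are given side by side with no test of a relation between them.

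Dgat1 was the only member called in 2 types, NK cells and T cells, and in both it was higher in JQF than HFD. In T cells, where JQF had 136 CPM and the HFD libraries 63.3 and 61.3 CPM, the change was 1.21 ± 0.16 on the log2 scale (edgeR adjusted p = 0.00281), and this call alone held under every alternative. In NK cells it was 0.91 ± 0.20 (edgeR adjusted p = 0.000182), with 148 CPM in JQF against 86.9 and 82.7 CPM in HFD. JQF stood between HFD and NCD in both types. The 5 NK cell markers in T cells summed to 649, 459, 414 and 519.7 CPM, in the same order as Dgat1, which was abundant in NK cells, and the 6 B cell markers to 59.3, 80.5, 90.8 and 353 CPM. The part of these in the T cell results for Dgat1, against NCD and with JQF, was not tested. B cells showed 26.4 CPM in JQF against 22.7 and 11.7 CPM and did not pass.

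Other members of lymphocytes changed once each. Cyp51 was higher in B cells of JQF (44.3 CPM against 10.6 and 20.0 CPM, 1.63 ± 0.33, edgeR adjusted p = 0.031), whereas in T cells it was at 14.6 CPM against 11.7 and 11.6 CPM and did not pass. Cd36 was lower in B cells (21.0 CPM against 78.8 and 51.7 CPM, -1.50 ± 0.29, edgeR adjusted p = 0.0241), but 82.2% of its UMIs in HFD replicate 1 came from 3 cells, and of 10 alternatives the Cyp51 call was lost under 8 and the Cd36 call under 7, free RNA subtraction, Leiden clusters, doublet removal and DESeq2 among them. JQF B cells held the 4 red cell markers at 1071 CPM, against 1.93 and 13.5 CPM in HFD, and the part of this in B cell results was not tested. In NK cells Apoe fell (89.1 CPM against 254 and 263 CPM, -1.42 ± 0.21, edgeR adjusted p = 1.71e-09) beside the free RNA estimates given above, a call lost with doublets removed and with Leiden clusters (-0.19, edgeR adjusted p = 0.711). Mgll fell there too (4.84 CPM against 18.0 and 14 CPM, -1.62 on the log2 scale), a call lost under 3 of 9 alternatives, Leiden clusters among them (-0.80), while Apoc1, called higher at 46.8 CPM against 10.3 and 49.6 CPM, was within the 50 CPM that free RNA could supply. Acsl3 in T cells (5.14 CPM against 1.92 and 2.12 CPM, edgeR adjusted p = 0.0573), Acsl1 in T cells (18.3 CPM against 12.7 and 10.4 CPM, edgeR adjusted p = 0.177) and Fdps in DC (55.5 CPM against 40.5 and 36.9 CPM, edgeR adjusted p = 0.117) were above both HFD libraries and missed the threshold.

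In hepatocytes, with 65 JQF cells, Mylip (82.7 CPM against 3.24 and 10.6 CPM, 3.13 ± 0.64, edgeR adjusted p = 0.000104), Soat1 (40.6 CPM against 1.08 and 7.6 CPM, 2.69 ± 0.70, edgeR adjusted p = 0.00358) and Abcg1 (76.7 CPM against 10.8 and 19.3 CPM, 2.01 ± 0.61, edgeR adjusted p = 0.0188) were higher in JQF. Fads1, the second desaturase of polyunsaturated fatty acids, was lower (39.1 CPM against 190 and 135 CPM, -2.31 ± 0.76, edgeR adjusted p = 0.0321). Of the JQF UMIs in hepatocytes, 72.7% of Mylip, 51.9% of Soat1 and 73.1% of Fads1 came from 3 cells, and all 4 calls were lost when the NCD library was left out of the fit. The 5 neutrophil markers in hepatocytes summed to 51.8, 4.32, 30.9 and 393 CPM and the 6 B cell markers to 200.2, 5.40, 14.7 and 102 CPM, higher in JQF than in either HFD library. Mylip, Soat1 and Abcg1 were among the members above the other types in neutrophils, and the part of this RNA in the hepatocyte results was not tested. Scd1 was at 368 CPM in JQF against 1729 and 1641 CPM, and did not pass (-2.46 ± 0.88, edgeR adjusted p = 0.056). JQF was the lowest library for Scd1 there.

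Endothelial Scd1 was called lower as well (5.22 CPM against 15.4 and 23.1 CPM, -1.97 ± 0.46, edgeR adjusted p = 0.00479), yet free RNA could supply 5.88, 11.0 and 18.6 CPM in the same order, and the call was lost once it was subtracted (edgeR adjusted p = 0.195). Ch25h was lower in JQF endothelial cells (3.01 CPM against 15.4 and 15 CPM, -2.32 ± 0.63, edgeR adjusted p = 0.0258), close to the 3.4 CPM of NCD, a call that was lost under 6 of 10 alternatives. In endothelial cells the 4 red cell markers summed to 651, 19.2, 518 and 2108 CPM and the 6 stellate cell markers to 47.1, 8.97, 14.1 and 171 CPM. The part of this RNA in the endothelial results was not tested. In macrophages the JQF levels of Plin2 (969 CPM against 1021 and 918 CPM, 0.01 ± 0.19) and Plin3 (45.9 CPM against 53.0 and 39.6 CPM) lay between the HFD libraries. Insig1, at 42.6 CPM against 26.5 and 30 CPM, and Cd36, at 1065 CPM against 797 and 930.5 CPM, lay above both HFD libraries and did not pass.

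Of the other pathway genes, few pairs passed for JQF against HFD. Uptake and efflux had 4 higher and 2 lower of 143, storage 1 higher and 2 lower of 65, fatty acid synthesis 1 higher and 0 lower of 63, oxidation 2 higher and 2 lower of 134 and sterol synthesis 0 of 104, against 2.52% of all gene pairs. Lpl, the lipase of circulating triglyceride, was higher in hepatocytes (281 CPM against 3.24 and 51.2 CPM, 2.96 ± 0.60, edgeR adjusted p = 7.36e-05), beside the markers of other types given above. Lpin1, a phosphatase of triglyceride synthesis, was lower in T cells of JQF (22.4 CPM against 65.5 and 71.2 CPM, -1.53 ± 0.20, edgeR adjusted p = 0.00199), and Cidec, a droplet fusion protein, was lower in hepatocytes (6.02 CPM against 126 and 86.1 CPM, -4.37 ± 0.89, edgeR adjusted p = 8.46e-05). These 3 genes were picked from the lists after their values were seen.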

How the data were processed

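Livers were perfused and digested, red cells were lysed, dead cells removed, and cells loaded on the 10x Genomics 3' workflow, per the methods of the study. The deposited values are raw UMI counts per gene and barcode, which the authors made with Cell Ranger (6.0.1 in the processing notes, with Seurat 4.0.3 and mm10, while the file headers name other versions). Whether introns were counted was not settled, so genes that overlap others may share reads. Cell annotation by the authors was not used.

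From the filtered matrices, barcodes were kept that had 500 genes or more and no more than 20% of UMIs from mitochondrial genes. A cell received a type when it had at least 50% of that type's markers and led the next type by at least 15 percentage points. These limits were set after the cells had been seen. Doublets stayed in the main counts and were removed with Scrublet in scanpy 1.11.5, at a rate that rose with the barcodes called, as an alternative (its own threshold marked 0.0117% to 2.65% of a library). UMI counts were summed per library and type. After filterByExpr and scaling by TMM, they entered a quasi-likelihood fit in edgeR 4.0.16 (R 4.3.3) on group only, with all 4 libraries and Benjamini-Hochberg adjustment over all genes of a type at 0.05. The HFD pair gave the 1 residual degree of freedom, and edgeR moderated each gene's spread toward that of all genes of the type, with prior degrees of freedom from 3.82 to 159.3 in 6 types and infinite in NK cells and hepatocytes. Types were compared in 1 fit with library as a block. Standard errors are the absolute log2 fold change over the square root of F. The scripts were tested on simulated data. Alternatives were DESeq2 1.42.0, other scaling, no gene filter, Leiden clusters, other cell filters, free RNA subtraction and left-out libraries. By rule, full values were given for up to 4 of the largest changes per group and comparison among pairs called at 20 CPM or more. Where a group had few calls, pairs with the smallest adjusted p were added. Macrophage levels were given for all members at 50 CPM or more. Other pairs are also given with full values, outside this rule. Members, lists and tests were chosen with earlier results of these data known. Promoters are from RefSeq and coordinates from GENCODE on GRCm38.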

Additional observations from a re-analysis of the deposited data

Results flagged for a closer look

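Several members passed for HFD against NCD in opposite directions in different cell types, and the difference between types was not tested. Abcg1 had a log2 fold change of 0.67 in DC and -1.30 in NK cells. Soat1 had 0.56 in DC, a call lost under 5 of 10 alternatives, and -3.04 in hepatocytes, and Lipe had -0.77 in DC and 1.22 in endothelial cells. Hadha was at -0.91 in B cells, -0.67 in T cells and 0.78 in macrophages. Hmgcs1 was at -1.27 in B cells, -1.01 in DC and 2.77 in hepatocytes, and Idi1 at -1.19 in B cells, -1.05 in T cells and 3.25 in hepatocytes.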

How the results depend on the processing

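The count of 83 pairs for HFD against NCD was 67 to 104 under all other alternatives but DESeq2, which gave 34, of which 29 were among the 83. The count of 13 for JQF against HFD was 7 with Leiden clusters and 7 with at most 10% mitochondrial UMIs, 3 with DESeq2 and 8 without the NCD library, and 9 to 19 under the others. The cell type comparison gave 104 pairs, and 91 to 114 under its alternatives (95 to 112 when a library was left out). Of the 83 calls 28 held under every alternative in which they were tested, and 1 of the 13. DESeq2 lost 41 of the 83 and 7 of the 13, leaving out pairs to which it gave no adjusted p, and subtraction of free RNA lost 10 and 3. Nothing was subtracted in hepatocytes, so that setting was no test of their 13 and 4 calls. Of 361 values of the named pairs under alternatives, 296 were unchanged, 34 missed the threshold, 3 newly passed it, 28 moved when an HFD library was left out, and 0 reversed. Unchanged meant the same direction and side of the threshold, except where an HFD library was left out. There no threshold applied, and unchanged meant a fold change within the standard deviation of the HFD pair. This held for 25 of the 296 without HFD replicate 1 and 13 without HFD replicate 2. Hepatocytes had too few cells with Leiden clusters or at most 10% mitochondrial UMIs, so those counts omit them. The counts with Leiden clusters include monocytes, which had 71, 930, 1641 and 723 cells there and were not tested in the main counts. Cluster borders, and so the counts with Leiden clusters, moved with the number of threads and the linear algebra kernel, which were fixed. Leaving out an HFD library left no residual degrees of freedom, so only fold changes were computed there. The alternatives without hepatocytes (70 and 9) and with pairs at 20 CPM or more (67 and 11) were chosen after seeing the data. No paired analysis was possible because the groups share only replicate number 1. NCD and JQF depth and cell number limit low genes, since 62 NK cells and 193 shallow hepatocytes made up the NCD side of those types.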
